A study of Mus musculus with 4 samples.

Results

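The genes described here encode 10 proteins of the basement membrane: the collagen IV chains Col4a1 and Col4a2, the laminin chains Lama2, Lama4, Lama5, Lamb1 and Lamc1, the nidogens Nid1 and Nid2, and the proteoglycan perlecan, Hspg2. They were chosen by symbol for their place in this structure, and all 10 were found among the 23351 rows of the deposited gene table. The study profiled polyadenylated RNA of primary satellite cells (muscle stem cells) isolated from a hindlimb muscle, the extensor digitorum longus, of mice of the strain C57BL/6 that were 6 to 8 weeks old, and by its title concerns young females. Cells of Control mice were compared with cells labelled ERβ scKO, in which estrogen receptor β was knocked out conditionally. The design text speaks of triplicates, and 2 libraries per group were analysed here. The Cre driver, the allele and the number of animals behind each library are not given in the sources used here. The p-values computed here therefore measure the spread between these libraries, which may be technical. Those of the authors come from their own test, and how it models spread is not known here.

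The basement membrane is the thin sheet of matrix that covers each muscle fibre and encloses the satellite cell against it. Laminins are trimers of an α, a β and a γ chain that bind receptors on the cell and polymerise at its surface. Collagen IV forms a second, covalently linked network, whose common protomer holds 2 α1 chains and 1 α2 chain. Nidogens bind the laminin γ1 chain and collagen IV, and perlecan is a large heparan sulfate proteoglycan that joins the same sheet. Loss of the laminin α2 chain causes a congenital muscular dystrophy, and satellite cells themselves can make matrix of this kind.

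The 9 members that reached a mean of 1 FPKM (fragments scaled by the authors to transcript length and library size) all had a lower mean in ERβ scKO than in Control, against 50.7% of all 11201 measured genes, with log2 ratios from −0.63 to −0.06. A log2 ratio here divides ERβ scKO by Control and was taken on log2(FPKM + 1), so it understates the change of low genes. The collagen IV chains, perlecan and laminin α5 had the largest differences, with group means 30.9% to 39.6% lower, while the means of laminin β1 and laminin α2 were 4.68% and 4.92% lower. No member passed a test over all genes: limma called 0 of the 9 at an adjusted p of 0.05, against 0.0357% of the measured genes. At an unadjusted limma p under 0.05 it held 1 member, Lama5, against 4.62% of them. By the authors' deposited table, 4 of the 9 members they tested had p under 0.05 and were lower (Col4a1, Col4a2, Lama5 and Hspg2), against 1.92% of the 9426 genes they tested. The same 4 had p under 0.01, against 0.393%, and 0 members were higher with p under 0.05, against 1.33%. None had a q under 0.05 in the authors' deposited table, where 0% of tested genes did. In bulk samples, fewer cells of a type and less RNA per cell cannot be told apart.

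The size of these differences rested largely on Control replicate 1. It was the highest of the 4 libraries in 8 of the 9 measured members, against 34.3% of all measured genes, and over 1.3 times each other library in 3 (Col4a1, Col4a2 and Hspg2), against 8.52%. The members' median log2 ratio was −0.31, against 0.00 for all measured genes, and without Control replicate 1 it was −0.04, with 6 of 9 members lower. Without Control replicate 2 it was −0.53. Both ERβ scKO libraries lay below both Control libraries in 2 members, Lama5 and Lamc1 (of 9, against 18.3% of all measured genes), and above both in 0, against 18.3%.

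**Figure D1:**
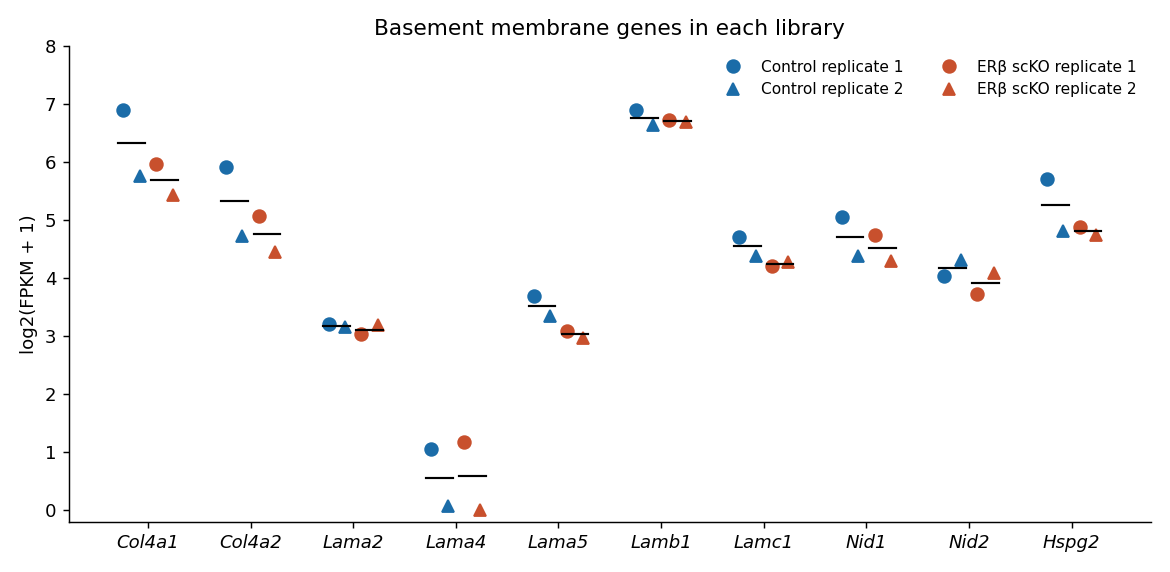
Each gene's level in every library, as log2(FPKM + 1), with the 2 Control libraries in blue and the 2 ERβ scKO libraries in red, circles for replicate 1 and triangles for replicate 2, and black lines for the mean of each group. Control replicate 1 stands above the other 3 libraries for Col4a1, Col4a2 and Hspg2, and Lama4 is seen in the replicate 1 libraries of both groups.

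The libraries held an estimated 2740000 to 3180000 fragments each, read from the steps between low FPKM values. Between 11108 and 11191 genes were at 1 FPKM or more in each. Limma called 4 of 11201 genes between the groups at this depth: Rn45s, Snora23, Snora31 and Snord35a, named after their values were seen, none of them a protein-coding gene. Esr2, which encodes ERβ, had 0.234 and 0.202 FPKM in Control and 0 in ERβ scKO, all below the 0.298 to 0.346 FPKM that 3 fragments would give, so it does not check the labels. The satellite cell marker Pax7 was between 10.4 and 10.7 FPKM and the myoblast factor Myod1 between 315 and 385 FPKM. Markers of myotubes were present too, with Myog at 494 to 660 FPKM, Myh3 at 252 to 459 FPKM and Acta1 at 734 to 828 FPKM. Mylpf was at 1334 to 2399 FPKM and Ckm at 15.6 to 20.0 FPKM. The nuclear RNAs Malat1 and Neat1, given here as a check on RNA quality, had log2 ratios of 0.83 and 0.67, and their values in ERβ scKO did not overlap those in Control. Their part in the results on the members was not tested.

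The collagen IV genes lie head to head on mouse chromosome 8. Col4a1 occupies 11198423 to 11312826 on the minus strand and Col4a2 occupies 11312829 to 11449287 on the plus strand in the deposited mm10 table, with 2 bases between them. Their promoter windows, from 250 bases before to 50 bases after the RefSeq start site on GRCm38.p6, are printed because both genes differed in parallel between libraries. The windows are given 5′ to 3′ on each gene's own strand, and the capitals mark the 78 bases they share, which are reverse complements of each other.
Col4a1, chr8:11312777-11313076, minus strand: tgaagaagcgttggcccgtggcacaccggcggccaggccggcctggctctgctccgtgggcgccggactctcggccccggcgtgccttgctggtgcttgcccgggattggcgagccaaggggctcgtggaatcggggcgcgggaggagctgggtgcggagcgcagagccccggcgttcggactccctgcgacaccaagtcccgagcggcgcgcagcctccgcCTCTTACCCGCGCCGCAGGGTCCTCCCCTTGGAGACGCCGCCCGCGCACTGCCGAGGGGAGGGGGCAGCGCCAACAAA
Col4a2, chr8:11312555-11312854, plus strand: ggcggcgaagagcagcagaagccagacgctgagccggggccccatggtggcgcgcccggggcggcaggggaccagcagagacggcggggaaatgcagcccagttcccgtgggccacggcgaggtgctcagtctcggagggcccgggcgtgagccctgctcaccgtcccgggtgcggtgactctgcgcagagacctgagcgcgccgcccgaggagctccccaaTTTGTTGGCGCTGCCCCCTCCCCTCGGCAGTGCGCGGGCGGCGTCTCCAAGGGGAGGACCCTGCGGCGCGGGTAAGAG
The start sites on which these windows are set lie 21 bases apart within the shared stretch, at 11312826 for Col4a1 and 11312805 for Col4a2. By these sites the genes overlap, unlike by the deposited positions. The RefSeq gene record of Col4a1 reaches to 11312889, outside the shared stretch. The GC content was 74.0% in the Col4a1 window and 73.7% in the Col4a2 window, against a median of 52.7% over 32851 promoter windows.

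Col4a1, the α1(IV) chain, had 119 and 52.9 FPKM in Control, against 61.4 and 42.1 FPKM in ERβ scKO, each pair given as replicate 1 and then replicate 2, here and for all genes that follow. Control replicate 1 was 2.24 times Control replicate 2, and the groups overlapped, since ERβ scKO replicate 1 lay above Control replicate 2. The group means were 85.7 ± 46.4 FPKM in Control and 51.8 ± 13.7 in ERβ scKO (SD, n = 2), a difference smaller than the SD of Control. Limma gave a log2 ratio of −0.63 (SE 0.39, 95% interval −1.59 to 0.33, unadjusted p = 0.156, adjusted p = 0.837). The authors' deposited table gave a log2 fold change of −0.73 with p = 0.00065 and q = 0.383. Without Control replicate 1 the log2 ratio was −0.06, and without Control replicate 2 it was −1.21. Without ERβ scKO replicate 2 it was −0.36.

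Col4a2, the α2(IV) chain, followed the same order of libraries, at 59.3 and 25.5 FPKM in Control and 32.5 and 20.7 FPKM in ERβ scKO. Again the groups overlapped and Control replicate 1 stood highest. The means were 42.4 ± 24 and 26.6 ± 8.31 FPKM (SD, n = 2), with a limma log2 ratio of −0.57 (SE 0.41, 95% interval −1.58 to 0.45, unadjusted p = 0.218, adjusted p = 0.837). The authors' deposited table gave p = 0.00115 and q = 0.492. The direction turned without Control replicate 1, to 0.03, and was −1.16 without the other Control library. Leaving out replicate 1 or replicate 2 of ERβ scKO gave −0.88 or −0.26.

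Across libraries that differed 2.82-fold in Col4a1, the ratio of Col4a1 to Col4a2 stayed near 2. In FPKM, which is per length, it was 2.0 and 2.08 in Control, against 1.89 and 2.03 in ERβ scKO. The group means of this ratio were 2.04 ± 0.0568 and 1.96 ± 0.0980 (SD, n = 2), and the groups overlapped. The gap in Col4a1 between the Control libraries was larger than counting error: an estimated 2084 and 1079 fragments gave exact Poisson 95% intervals of 114 to 124 and 49.8 to 56.1 FPKM. Antisense transcripts are annotated at the Col4a1, Col4a2, Lama2 and Nid1 loci, and whether the authors' counting used strand is not given in the sources used here.

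Hspg2, the perlecan core protein (chromosome 4, 137468803 to 137570630), had 51.0 and 27.2 FPKM in the Control libraries, against 28.4 and 25.7 FPKM in those of ERβ scKO. The groups overlapped, and only Control replicate 1 stood apart. The means were 39.1 ± 16.9 and 27.0 ± 1.93 FPKM (SD, n = 2), and limma gave a log2 ratio of −0.45 (SE 0.29, 95% interval −1.16 to 0.26, unadjusted p = 0.167, adjusted p = 0.837). The authors' deposited table gave p = 0.0096 and q = 0.998. Without Control replicate 1 the log2 ratio was −0.01, and without Control replicate 2 it was −0.89.

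Lama5, the laminin α5 chain found in many basement membranes (chromosome 2, 180176373 to 180225859, minus strand), had 11.9 and 9.20 FPKM in Control, against 7.53 and 6.80 FPKM in ERβ scKO. Every ERβ scKO value lay below every Control value, and the difference between the means, 10.5 ± 1.88 and 7.17 ± 0.513 FPKM (SD, n = 2), was larger than either SD. Limma gave a log2 ratio of −0.49 (SE 0.18, 95% interval −0.94 to −0.04), an unadjusted p of 0.0372 and an adjusted p of 0.837, so the gene was not called over all genes. The authors' deposited table gave p = 0.0082 and q = 0.998. Of the 4 members with the authors' p under 0.05, Lama5 moved least when a library was left out, with log2 ratios from −0.66 to −0.32. The −0.32, without Control replicate 1, was more than 1.5 times smaller than the value from all libraries.

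The promoter windows of Hspg2 and Lama5 are printed because these genes, like the collagen IV pair, had the lower values in ERβ scKO. Capitals mark each GC box, searched as GGGCGG on both strands, the binding letters of Sp1-type factors.
Hspg2, chr4:137468553-137468852, plus strand: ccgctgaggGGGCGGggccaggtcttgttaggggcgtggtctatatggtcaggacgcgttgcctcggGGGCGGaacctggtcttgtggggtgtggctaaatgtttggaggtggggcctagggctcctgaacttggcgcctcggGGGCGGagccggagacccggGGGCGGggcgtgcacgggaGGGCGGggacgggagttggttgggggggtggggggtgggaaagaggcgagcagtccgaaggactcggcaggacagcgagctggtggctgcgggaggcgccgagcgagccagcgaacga
Lama5, chr2:180225810-180226109, minus strand: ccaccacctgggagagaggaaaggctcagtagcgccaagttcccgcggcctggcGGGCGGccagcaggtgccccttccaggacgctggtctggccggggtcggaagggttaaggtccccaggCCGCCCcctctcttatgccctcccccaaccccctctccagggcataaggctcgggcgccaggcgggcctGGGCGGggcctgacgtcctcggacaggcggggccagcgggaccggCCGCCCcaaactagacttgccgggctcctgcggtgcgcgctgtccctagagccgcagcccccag
The Hspg2 window held 5 GC boxes and the Lama5 window 4, and 2.7% and 5.5% of all 32851 windows held at least that many. The Col4a2 window held 3, the window of Lamb1, which hardly differed between the groups, held 2, and those of Col4a1, Lama2 and Nid1 held 1 each. Windows were found for 7 of the 10 members, and all 7 held at least 1 GC box, as did 35.7% of all windows. The members' windows had a median GC content of 70.3%, against 52.7% over all windows, and these shares were not matched for GC content. CCAAT occurred in 4 of the 7 (37.4% of all windows), TATAAA in 0 of 7 (13.6%), CATTCC, the letters bound by TEAD factors, in 1 of 7 (14.7%), and the palindromic estrogen response element, GGTCA and TGACC with 3 bases between them, in 0 of 7 (0.07%). Both strands were searched, and a match describes the letters of these windows without showing that a factor binds there.

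Lama2, the α2 chain of the main laminin of the muscle fibre (chromosome 10, 26981285 to 27616942, minus strand), had 8.21 and 7.87 FPKM in Control, against 7.15 and 8.13 FPKM in ERβ scKO. The groups overlapped, and the highest library was 1.15 times the lowest, the narrowest range of the 9 measured members. Limma gave a log2 ratio of −0.07 (SE 0.16, 95% interval −0.46 to 0.33, adjusted p = 0.938). It turned to 0.02 without ERβ scKO replicate 1 and was −0.15 without ERβ scKO replicate 2. Lama2 made up a smaller share of the measured laminin α transcripts than Lama5 in both Control libraries, where the ratio of Lama2 to Lama5 was 0.692 and 0.855. In ERβ scKO the ratio was 0.950 and 1.2, above both Control values, with group means of 0.773 ± 0.115 and 1.07 ± 0.173 (SD, n = 2). With 2 libraries against 2, an exact permutation test cannot give a two-sided p under 0.333.

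Lama4, an α chain found in endothelial and mesenchymal basement membranes (chromosome 10, 38965515 to 39110188), reached 1.06 FPKM in replicate 1 of Control and 1.26 FPKM in replicate 1 of ERβ scKO. It was at 0.0539 FPKM in Control replicate 2, about 1 fragment, and listed at 0 in ERβ scKO replicate 2. Thus Lama4 divided the libraries by replicate number and not by genotype. For a transcript this long 3 fragments give 0.161 to 0.187 FPKM, so both replicate 2 libraries were below what this depth could measure, and the replicate 1 libraries rested on an estimated 17.0 and 22.2 fragments. The authors did not test it, and its mean over libraries, 0.596 FPKM, was below the limit of 1 FPKM used for limma.

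Lamb1, the laminin β1 chain (chromosome 12, 31265294 to 31329639), had the highest mean of the 10 members and hardly differed between the groups. It had 118 and 98.2 FPKM in Control, against 104 and 102 FPKM in ERβ scKO, with both ERβ scKO libraries between the Control libraries. The means were 108 ± 14 and 103 ± 1.61 FPKM (SD, n = 2), and limma gave a log2 ratio of −0.06 (SE 0.12, 95% interval −0.36 to 0.24, adjusted p = 0.918). The ratio was 0.07 without Control replicate 1 and −0.19 without Control replicate 2.

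Lamc1, the laminin γ1 chain that carries the nidogen binding site (chromosome 1, 153218922 to 153332786, minus strand), had 25.1 and 19.9 FPKM in Control, against 17.4 and 18.3 FPKM in ERβ scKO. The groups did not overlap, and the difference between the means, 22.5 ± 3.66 and 17.8 ± 0.612 FPKM (SD, n = 2), was larger than either SD. It was not called by limma (log2 ratio −0.31, SE 0.15, 95% interval −0.69 to 0.07, adjusted p = 0.837), and the authors' deposited table gave p = 0.09995. Without Control replicate 1 the log2 ratio was −0.15, and without Control replicate 2 it was −0.47.

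The laminin chains were unequal in level. Lamb1 exceeded Lamc1 4.71-fold and 4.94-fold in the Control libraries, and 5.98-fold and 5.58-fold in the ERβ scKO libraries, where both values lay above both Control values. Lamc1 by itself was also without overlap, as were 18.3% of all measured genes in each direction, while Lamb1 overlapped. A difference in the ratio of Lamb1 to Lamc1 was not tested. The group means of this ratio were 4.82 ± 0.162 and 5.78 ± 0.289 (SD, n = 2). By contrast, Lamc1 was close to the 3 α chains added together in every library, at 1.19 and 1.16 times their sum in Control and 1.09 and 1.22 times in ERβ scKO. The summed FPKM of Lama2, Lama4 and Lama5 was 19.1 ± 2.84 in Control and 15.4 ± 0.715 in ERβ scKO (SD, n = 2).

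**Figure D2:**
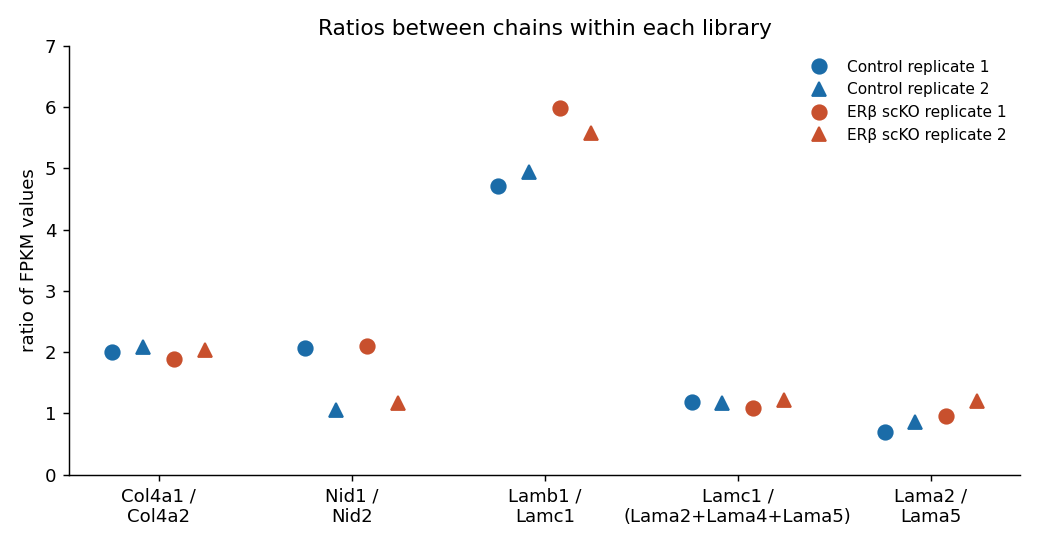
Ratios of FPKM values between members within each library, with Control in blue, ERβ scKO in red, circles for replicate 1 and triangles for replicate 2. Col4a1 to Col4a2 lies between 1.89 and 2.08 in every library, Nid1 to Nid2 divides the libraries by replicate number, and Lamb1 to Lamc1 is higher in both ERβ scKO libraries.

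Nid1 and Nid2, the linkers between laminin and collagen IV, varied in opposite directions between the replicate numbers. Nid1 (chromosome 13, 13437602 to 13512275) had 32.0 and 19.9 FPKM in Control, against 25.8 and 18.6 FPKM in ERβ scKO, higher in the replicate 1 library of each group. Nid2 (chromosome 14, 19751257 to 19823823) had 15.4 and 18.7 FPKM in Control, against 12.3 and 16 FPKM in ERβ scKO, higher in the replicate 2 library of each group. Both replicate 1 libraries lay above both replicate 2 libraries in 5 of 9 members (Col4a1, Col4a2, Lamb1, Nid1 and Hspg2), against 20.2% of all measured genes, and below them in 1, Nid2, against 18.8%. The ratio of Nid1 to Nid2 was 2.07 and 2.10 in the replicate 1 libraries of Control and ERβ scKO, and 1.06 and 1.16 in their replicate 2 libraries. The submitters describe both replicate 1 libraries as 305 and both replicate 2 libraries as 332, so each Control library shares a label with an ERβ scKO library. Whether that label marks a litter, a day or another batch is not given in the sources used here.

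Between genotypes the nidogens overlapped. Limma gave a log2 ratio of −0.20 for Nid1 (SE 0.26, 95% interval −0.85 to 0.45, adjusted p = 0.885), which was 0.13 and −0.53 without Control replicates 1 and 2. Leaving out replicate 1 or replicate 2 of ERβ scKO gave −0.42 or 0.03. For Nid2 it was −0.26 (SE 0.18, 95% interval −0.72 to 0.19, adjusted p = 0.837), and leaving out replicate 1 or replicate 2 of ERβ scKO gave −0.08 or −0.44. Without Control replicates 1 and 2 in turn the Nid2 ratio was −0.40 and −0.13. The deposited Nid2 locus runs past the RefSeq end of the gene at 19811787 and over Rtraf, a gene on the opposite strand. The library kit marks strand, but since use of strand in the counting is not known here, the Nid2 level may include reads of Rtraf. The summed nidogen FPKM was 43.0 ± 6.21 in Control and 36.3 ± 2.42 in ERβ scKO (SD, n = 2), and per Lamc1 it was 1.92 ± 0.0358 and 2.04 ± 0.206.

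Ordered by mean FPKM over the 4 libraries, which is a level per length, the members ran from Lamb1 (106) through Col4a1 (68.8), Col4a2 (34.5), Hspg2 (33.1), Nid1 (24.1), Lamc1 (20.2), Nid2 (15.6), Lama5 (8.85) and Lama2 (7.84) to Lama4 (0.596). The ranges of neighbours overlapped at every step but 2, between Nid2 and Lama5 and between Lama2 and Lama4. Col4a2 was above Hspg2 in 2 of 4 libraries, so their order was not settled. Within a library, Col4a1 was above Col4a2 and Hspg2 above Nid1 in 4 of 4. Col4a1 and Col4a2 varied most among the members above 1 FPKM, with the highest library at 2.82 and 2.87 times the lowest, against 1.2 times for Lamb1.

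Libraries with the same replicate number could be compared without sharing a sample between the comparisons. In the replicate 1 libraries all 9 measured members were lower in ERβ scKO, with a median log2 ratio of −0.50 and a range from −0.94 (Col4a1) to −0.18 (Lama2). In the replicate 2 libraries 7 of 9 were lower, with a median of −0.12 and a range from −0.39 (Lama5) to 0.05 (Lamb1). The medians of all measured genes were −0.01 and 0.00. The 7 members lower in both were Col4a1, Col4a2, Lama5, Lamc1, Nid1, Nid2 and Hspg2, against 29% of all measured genes, and 0 were higher in both, against 28.6%. The difference in Col4a1 was −0.94 and −0.32, in Hspg2 −0.82 and −0.08, and in Lama5 −0.59 and −0.39, so Lama5 had the largest value of the 9 in the replicate 2 libraries.

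**Figure D3:**
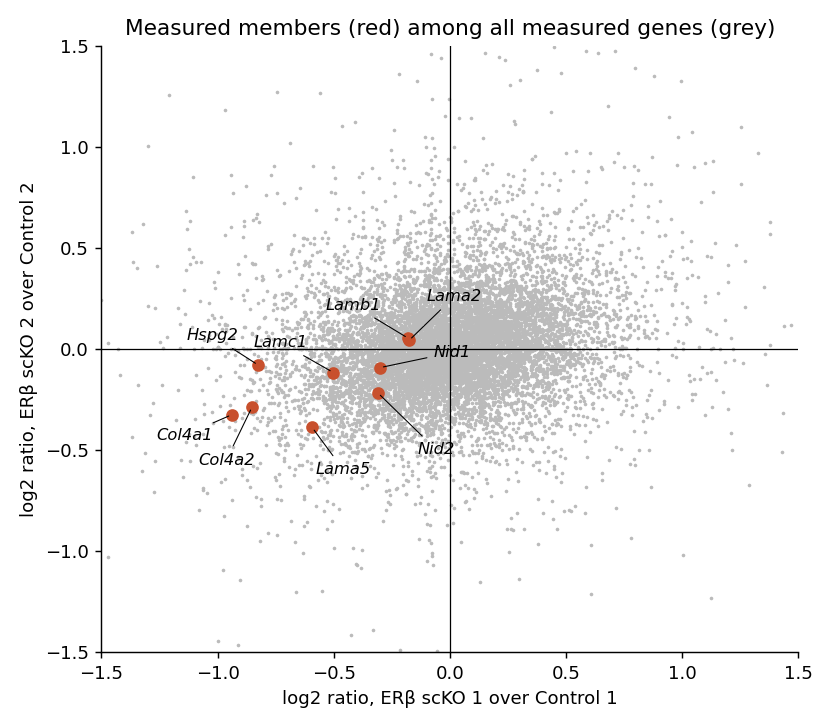
Log2 ratio of ERβ scKO over Control in the replicate 1 libraries (horizontal) against the replicate 2 libraries (vertical), for all 11201 measured genes in grey and the 9 measured members in red; 77 genes lie beyond the axes at 1.5. All 9 members lie left of 0, and 7 also lie below 0.

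**Figure D4:**
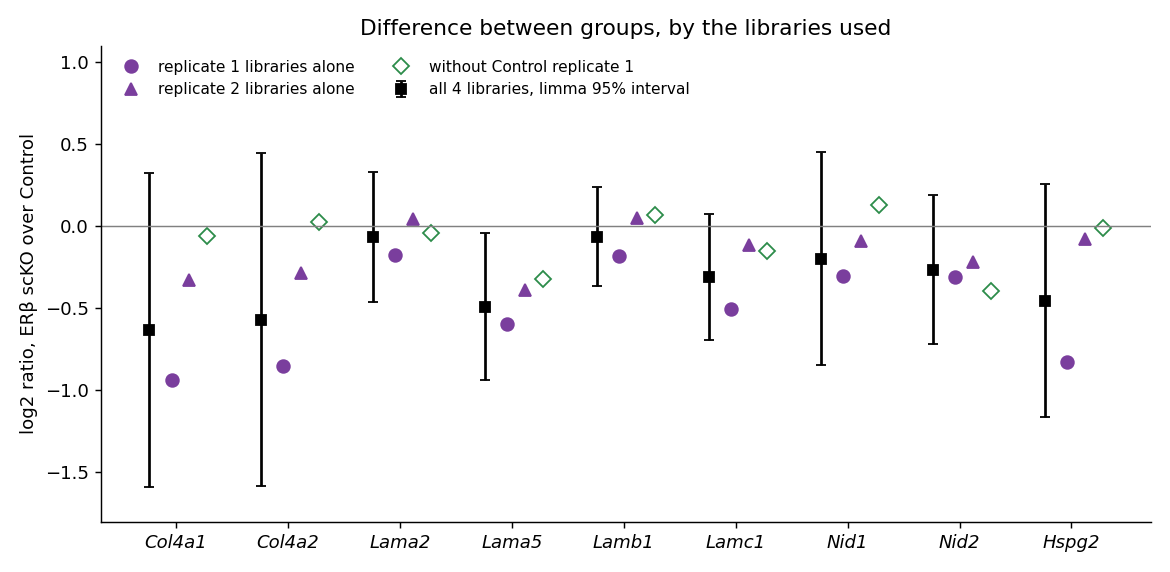
Log2 ratio of ERβ scKO over Control for the 9 measured members, from all 4 libraries with limma's 95% interval (black), from the libraries of 1 replicate number (purple circles and triangles), and without Control replicate 1 (open green diamonds). Without Control replicate 1 the ratios of Col4a1, Col4a2 and Hspg2 lie between −0.06 and 0.03, while that of Lama5 is −0.32.

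The members are long transcripts with a high GC content. The longest annotated transcript had a median length of 6615 bases over the 9 measured members, against 3406 for all measured genes, and a median GC content of 54.6%, against 49.6%. The 4 members with the authors' p under 0.05 had the highest GC content of the 10, at 60.9% (Hspg2), 60.6% (Col4a2), 59.9% (Lama5) and 57.7% (Col4a1). Over all measured genes the log2 ratio moved with GC content as well: its median was 0.09 in genes under 45% GC, −0.11 in genes from 55% to 60% and −0.20 in genes over 60%. In the replicate 1 libraries these medians were 0.17, −0.20 and −0.38, and in the replicate 2 libraries 0.01, 0.00 and −0.01. After removal of the GC trend in each library, an analysis added after the data were seen, the log2 ratio was −0.53 for Col4a1, −0.40 for Col4a2, −0.34 for Lama5 and −0.28 for Hspg2, and the members' median was −0.28.

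Of 22 other basement membrane genes listed, 11 reached 1 FPKM, of which 7 were lower and 4 higher in ERβ scKO, with a median log2 ratio of −0.09. Limma called 0, with 0 at an unadjusted p under 0.05, against 4.62% of all measured genes. Sparc, a collagen-binding matricellular protein and the most abundant of them, had a log2 ratio of −0.11. Col18a1, which contains endostatin, had a mean of 102 ± 26.0 FPKM in Control and 102 ± 5.97 FPKM in ERβ scKO (SD, n = 2), and Npnt, an integrin ligand, had a log2 ratio of −0.06. The authors' p was under 0.05 for 1 of the 9 they tested, Smoc2, a calcium-binding basement membrane protein, which had 29.9 and 8.08 FPKM in Control, against 14.2 and 6.31 FPKM in ERβ scKO. Its log2 ratio of −0.67 (SE 0.62) was further from 0 than that of any measured member, and its order of libraries was that of Col4a1. Whether this list and the members differ was not tested. Among other laminin chains, named after their values were seen, Lama1 and Lama3 were at or under 0.0678 FPKM, and Lamb2, the β2 chain, had means of 8.84 ± 3.22 FPKM in Control and 7.09 ± 0.397 FPKM in ERβ scKO (SD, n = 2). Lamb3, the β3 chain, had a log2 ratio of −0.31 (SE 0.32), equal at this precision to the members' median.

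The receptors of this matrix were split. Among 16 measured receptors and linkers 8 were lower and 8 higher, with a median log2 ratio of −0.03, and limma called 0. At an unadjusted limma p under 0.05 there were 2, against 4.62% of all measured genes: Itga6, which was lower, and Sgca, which was higher. The authors' p was under 0.05 for 0 of 14. Of the 16, 5 were without overlap and lower and 2 without overlap and higher, against 18.3% of all measured genes in each direction. Itgb1, the integrin β1 subunit, had a log2 ratio of 0.03, and Itga7, the laminin receptor subunit of differentiated muscle, −0.08. Itga6, the laminin-binding α6 subunit, had 112 and 120 FPKM in Control, against 85.0 and 95.8 FPKM in ERβ scKO, without overlap (log2 ratio −0.35, SE 0.11, limma adjusted p = 0.837). Sgca, the α-sarcoglycan of the dystrophin complex, had 24.8 and 24.2 FPKM in Control, against 30.8 and 30.3 FPKM in ERβ scKO, also without overlap (log2 ratio 0.31, SE 0.11, limma adjusted p = 0.837). For the 6 genes of dystroglycan glycosylation in the table, enzymes that build the laminin-binding sugar, 4 were lower and 2 higher. Their median was −0.14, limma called 0 (0 at an unadjusted p under 0.05), and Pomgnt1 and B3galnt2, the most abundant, had log2 ratios of −0.25 and −0.09.

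Among 12 measured genes of collagen IV assembly and secretion 9 were lower and 3 higher, with a median log2 ratio of −0.12. Limma called 0, with 1 (Plod2) at an unadjusted p under 0.05, against 4.62% of all measured genes. Of the 12, 3 were without overlap and lower and 2 without overlap and higher, against 18.3% of all measured genes in each direction. Plod3, a lysyl hydroxylase with the glycosyltransferase activity that collagen IV needs, had p = 0.028 in the authors' deposited table. It had 42.2 and 25.4 FPKM in Control, against 24.7 and 23.3 FPKM in ERβ scKO, without overlap but with Control replicate 1 far above the rest. Serpinh1, the collagen chaperone, was also highest in Control replicate 1, at 526 and 336 FPKM in Control and 363 and 327 FPKM in ERβ scKO. Its groups overlapped. Plod2, another lysyl hydroxylase, had means of 73.6 ± 2.09 FPKM in Control and 88.4 ± 1.72 FPKM in ERβ scKO (SD, n = 2, limma adjusted p = 0.837) without overlap, and P4hb had a log2 ratio of −0.12. Remodelling proteases and their inhibitors had 6 of 14 measured genes lower and 8 higher, with a median of 0.05. Limma called 0, with 2 (Ctsb and Timp2) at an unadjusted p under 0.05, against 4.62% of all measured genes. Timp3, a matrix-bound inhibitor with p = 0.0202 in the authors' deposited table, had 14.1 and 4.35 FPKM in Control, against 7.19 and 4.77 FPKM in ERβ scKO, while Timp1, Ctsl and Timp2 had log2 ratios of −0.03, 0.08 and 0.25.

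Markers of other cell types that make basement membrane varied between the same libraries. Of 9 fibroblast markers 8 were measured, and Lum was at 0 in every library. All 8 had a log2 ratio below 0, against 50.7% of all measured genes, with a median of −0.27. For Dcn this held only on the log scale, since its mean was 1.27 FPKM in Control and 1.28 FPKM in ERβ scKO. The summed level of the fibroblast markers was 197 and 133 FPKM in Control and 129 and 113 FPKM in ERβ scKO, highest in Control replicate 1, as for collagen IV. Most of this sum was Col3a1 and Col1a2 in every library. The markers Pdgfra and Dcn instead divided the libraries by replicate number, as did Lama4: Pdgfra had 3.17 and 0.446 FPKM in Control, against 2.64 and 0.149 FPKM in ERβ scKO, and Dcn 1.96 and 0.584 FPKM, against 2.36 and 0.195 FPKM. Col1a1, a fibrillar collagen chain, had 18.7 and 0.909 FPKM in Control, against 2.09 and 1.40 FPKM in ERβ scKO, and Col1a2 and Col3a1 had log2 ratios of −0.46 and −0.26. The 6 endothelial markers summed to 3.91 and 1.87 FPKM in Control and 8.68 and 2.54 FPKM in ERβ scKO, higher in the replicate 1 library of each group, as for Lama4. Emcn had 1.75 and 0.746 FPKM in Control, against 5.23 and 0.506 FPKM in ERβ scKO. It was the largest part of the sum except in ERβ scKO replicate 2. Pecam1 was under 1 FPKM in every library, and Cdh5 lay between 0.249 and 1.51 FPKM. Kdr went the other way in ERβ scKO, at 0.320 and 0.420 FPKM.

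The 5 pericyte markers summed to 64.1 and 68.8 FPKM in Control and 75.8 and 67.3 FPKM in ERβ scKO. Most of this was Rgs5 (log2 ratio 0.25), while Cspg4 had a log2 ratio of −0.22 and Pdgfrb, with p = 0.0012 in the authors' deposited table, had 8.28 and 2.84 FPKM in Control, against 4.06 and 1.45 FPKM in ERβ scKO. The 4 Schwann cell markers summed to between 2.26 and 3.48 FPKM and the 3 leukocyte markers found to between 0.757 and 2.89 FPKM. The 5 myotube markers summed to 2831 and 3927 FPKM in Control and 3783 and 4364 FPKM in ERβ scKO, lowest in Control replicate 1. Mylpf was the largest part of this sum in every library, while Acta1 was nearly equal in the Control libraries, at 735 and 734 FPKM. Of the 5, 4 were higher in ERβ scKO, and Ckm was lower (log2 ratio −0.09). The 5 satellite cell and myoblast markers summed to between 808 and 922 FPKM. The part of these cells in the levels of the members was not tested.

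**Figure D5:**
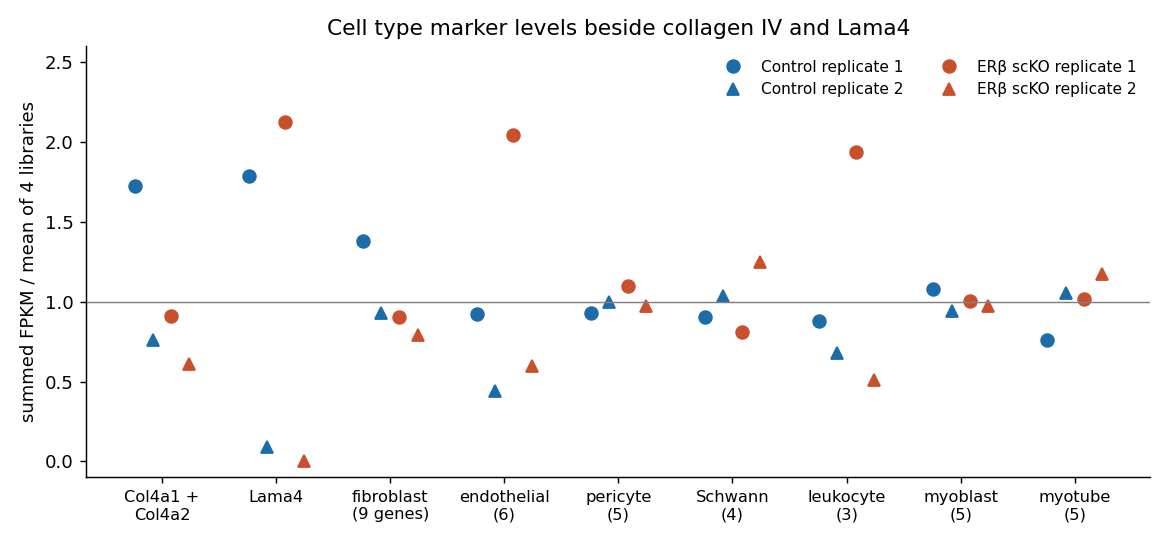
Summed FPKM of collagen IV, Lama4 and 7 lists of cell type markers in each library, divided by the mean over the 4 libraries (grey line at 1), with Control in blue, ERβ scKO in red, circles for replicate 1 and triangles for replicate 2. Collagen IV and the summed fibroblast markers, mostly Col3a1 and Col1a2, are highest in Control replicate 1, at 1.72 and 1.38 times the mean. Lama4 and the summed endothelial markers are higher in the replicate 1 library of each group. The summed myotube markers, with Mylpf the largest part, are lowest in Control replicate 1, at 0.760 times the mean. Single markers did not all follow the sum of their list.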

How the data were processed

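RNA sequencing values of 2 Control and 2 ERβ scKO libraries were analysed. The submitters' processing notes name TopHat, Cufflinks and the mm10 build; versions and annotation are not given in the sources used here. The deposited FPKM values, one per gene and library, were computed by the authors. The authors' deposited log2 fold change, test statistic (a score), p-value and q-value come from their own test and are named per the file headers. Group means in the deposited table were not used.

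FPKM are not counts, so limma 3.58.1 (R 4.3.3) was run on log2(FPKM + 1), with a variance trend, over the 11201 genes whose mean reached 1 FPKM, at a Benjamini-Hochberg adjusted p of 0.05 over all of them. Fragment numbers were estimated from the steps of low values in 279 to 313 genes with a single transcript over 1500 bases, taking 200 bases off each length; intervals and limits of 3 fragments from them cover counting error only. Transcripts came from GENCODE M21 and promoters from RefSeq (GRCm38.p6). GC content was known for 99.2% of measured genes and its trend was removed by loess (span 0.5).

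The members and lists were chosen with earlier results of these data known. The rule names all members and, from each related list, the genes with the authors' p under 0.05 and the 3 with the highest mean FPKM. One gene that the rule names is not reported here. Genes named outside it (Sgca, Ctsb and single cell type markers) were picked with their values in view. The alternatives were pseudocounts of 0.1 and 5, no filter or a mean of 5 FPKM, upper quartile scaling, each library left out, a block for the replicate number, each number's libraries alone, no variance trend and removal of the GC trend.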

Additional observations from a re-analysis of the deposited data

How the results depend on the processing

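The direction of all 9 measured members held under both other pseudocounts, both other filters, upper quartile scaling, the replicate block and removal of the GC trend, and limma called 0 members under every alternative run. Leaving out each library in turn gave a members' median log2 ratio of −0.53 to −0.04, 6 to 9 members lower, 3 to 8 members without overlap (2 with all libraries) and 7 to 11 calls over all genes (4 with all libraries). With 1 library left out the log2 ratio changed sign for Col4a2 (−1.16 to 0.0265), Lama2 (−0.15 to 0.0153), Lamb1 (−0.19 to 0.0687) and Nid1 (−0.53 to 0.13). The cause was not tested. Where 1 library was left in a group, it was assumed to vary like the other group. With the libraries of 1 replicate number alone, 9 members in number 1 and 7 in number 2 were lower, which with 1 library per group is also the count without overlap. The median log2 ratios of all measured genes were −0.01 and 0.00 in these 2 settings. With no filter on low values limma called 88 genes over the whole table; the cause was not tested. By the authors' q, 0 members were called in place of 4.

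Replicate number as a block gave 6 calls over all genes and changed no call of a member (lowest limma adjusted p = 0.579). Deviations of same-numbered libraries from their group means correlated at 0.211 across 11201 genes. Genes are not independent replicates. Same-numbered libraries also share the submitters' label 305 or 332, whose meaning is not known here, so with 2 pairs a true pairing was not established. An exact test of 2 libraries against 2 cannot give p under 0.333, and among the members the depth limits Lama4.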
